A study of Caenorhabditis elegans with 19 samples.

Results

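LIN-14 occupancy was listed at 14675 genomic sites in the comparison of second-stage (L2) with first-stage (L1) larvae of Caenorhabditis elegans, and the 508 sites whose log2 concentration dropped by 0.75 or more from L1 to L2 are described here. These 508 sites made up 3.46% of the listed sites, and they were assigned to 486 of the 10006 genes with a listed site (4.86%). The drop is the L1 concentration minus the L2 concentration, both taken from the authors' deposited table, where a concentration is the log2 of a mean normalised read count over the libraries of a stage. The members were chosen by these concentrations, so concentrations, folds and false discovery rates (FDR) of the 508 sites, and peaks called on the same libraries, are given as descriptions and were not tested. The material was whole larvae with lin-14::gfp (allele cc2841), in which LIN-14 carries GFP at its C terminus, and chromatin was recovered on GFP-binding beads. L1 larvae were taken 8 ± 1 h and L2 larvae 21 ± 1 h after they were placed on food, with 5 ChIP and 4 input libraries for each stage. A 19th library, a ChIP from untagged N2 larvae at L1, was not analysed here. The deposited values are 1 per stage, so no spread between libraries can be shown for a site, and the authors' p-values measure a spread between libraries that may be technical, since nothing says that these came from separate cultures. In whole larvae, binding in fewer cells and weaker binding per cell cannot be told apart.

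LIN-14 is a nuclear factor that specifies fates of the first larval stage, and lin-14 was among the first genes known to control when, rather than where, a cell fate is adopted. The lin-4 microRNA pairs with the lin-14 transcript and lowers LIN-14 protein as larvae pass from the first to the second stage. Nearly all listed sites, 14638 of 14675, had the lower concentration in L2 in the authors' deposited table, and the members are the steep end of that decrease. Sites with an FDR above 0.3 are not in that table and the smallest fold in it is 0.18 in size, so this count and the medians of listed sites leave out sites with little change.

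At the 508 sites the median concentration was 6.00 in L1 (range 5.18 to 8.88) and 5.17 in L2 (4.23 to 7.97) in the authors' deposited table. The other 14167 listed sites had medians of 6.03 in L1 and 5.59 in L2 in the authors' deposited table. The median L1 concentrations of both sets were thus close, and the medians differed more in L2. Both concentrations enter the rule, so this is a description and nothing is read from it. The fold enrichment of L1 peaks over control was higher at the members, with a median of 2.2 against 2.02. As normalised read counts, the median member went from 63.8 to 36 and the median other site from 65.3 to 48.2 in the authors' deposited table. The median drop of the members was 0.80 (interquartile range 0.77 to 0.86), which corresponds to a normalised read count 42.6% lower in L2, against 0.44 or 26.3% lower at the other sites. The drop of 0.75 that defines membership corresponds to a count 40.5% lower, and the largest drop, 1.43, to one 62.9% lower. Counts at a site include background reads, so these are not shares of bound LIN-14 lost. Most members lay near the threshold. Drops from 0.75 to under 0.80 were found at 227 sites (44.7%), and drops of 1.00 or more at 24 sites (4.72%).

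**Figure D1:**
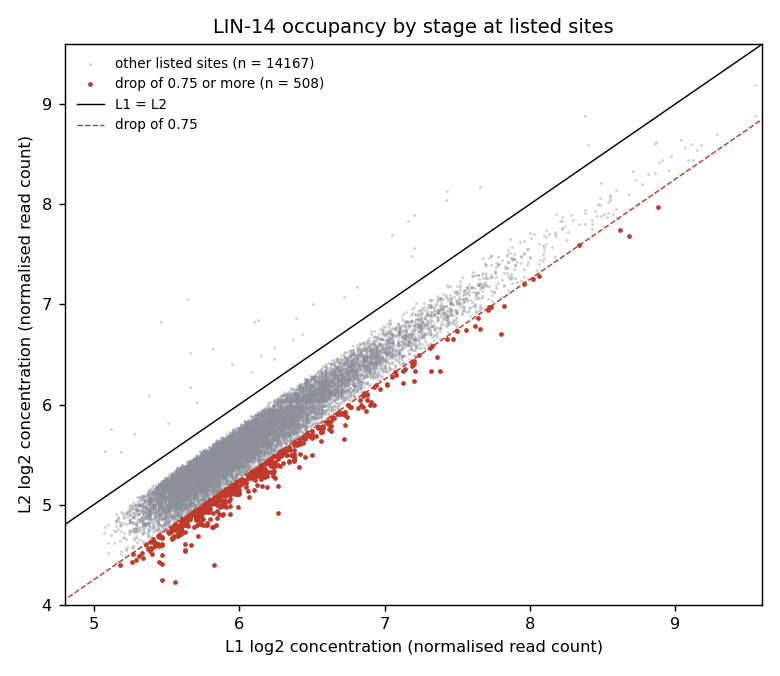
LIN-14 log2 concentration (log2 of the mean normalised read count) in L1 on the x axis and L2 on the y axis, with 1 point per listed site. Red points are the 508 sites with a drop of 0.75 or more, grey points the other 14167, and the solid and dashed lines mark equal concentration and a drop of 0.75; 5 sites lie beyond the axes. The red points form the lower rim of the cloud along its whole length and span L1 concentrations from 5.18 to 8.88.

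Of the 508 members, 493 (97%) had an FDR under 0.05 and 199 (39.2%) an FDR under 0.01 in the authors' deposited table. Among all listed sites, 41.4% were lower in L2 at an FDR under 0.05 and 1.80% at an FDR under 0.01. Nothing is read from this contrast, because the drop and the FDR come from the same fit. The other 15 members had FDRs of up to 0.143 in the authors' deposited table. A standard error derived from each deposited fold and p-value, which assumes a normal test statistic, had a median of 0.22 log2 units in the members and 0.20 in the other sites. Membership is blurred at that size. The 95% interval of the drop included 0.75 at all 508 members, and it lay wholly above 0.44, the median drop of the other sites, at 88 of them. The sites on either side of the threshold were alike in precision, with 46 sites at a drop of 0.75 and 57 at 0.74, both with a median standard error of 0.21. Just inside lay ugt-23, from 7.24 in L1 to 6.49 in L2, and the homeobox gene ceh-63, from 5.88 to 5.13, in the authors' deposited table. T21B6.8, rom-4 and F19B6.1 were also among the first 5 inside. Just outside lay pigw-1, from 6.14 to 5.40, and ipla-5, from 6.43 to 5.69, in the authors' deposited table, with 21ur-7883, Y52D5A.2 and C35A5.10.

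The steepest drops were also the least precisely measured. A standard error above 0.30 was found at 3.96% of members with a drop under 0.80, at 5.34% of those from 0.80 to under 0.90, at 13.7% of those from 0.90 to under 1.00 and at 15 of the 24 members (62.5%) at 1.00 or more. The median standard error of these 24 was 0.34. A site with a large standard error enters the list only with a large drop, because of the FDR limit of 0.3, so part of this relation is fixed by the listing. The order of the sites within the steepest group therefore cannot be read from their drops.

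The 20 genes with the largest drops, from 1.43 to 1.01, held 14 protein-coding genes and 6 others. All 20 sites had an FDR under 0.05 in the authors' deposited table, 19 lay in an L1 peak and 1 lay in an L2 peak. Over all 508 members the shares were 97%, 99.2% and 15.6%. C36E6.8 had the largest drop, from 5.83 in L1 to 4.40 in L2 with an FDR of 0.0276, in the authors' deposited table. Its site (chromosome X, 17444680 to 17444967) is classed as distal intergenic, 6067 bp past the transcript start, and it was the member of the 20 that overlapped no peak. The implied standard error of 0.51 makes its place at the head of the list uncertain. Y48E1C.2 followed, from 6.27 to 4.92 with an FDR of 0.00635, in the authors' deposited table. The site lies in intron 5 of 5 of that gene (chromosome II, 13428088 to 13428412), in an L1 peak with a fold enrichment over control of 2.69. Positions follow the files, with counting from 1, and the build of the genome was not given in the sources used here. Fold enrichments of peaks are the authors' values throughout.

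Genes of known function in this group had sites in several kinds of place. The site of ift-139, which encodes an intraflagellar transport protein needed in cilia, lay in exon 8 of its 15 exons (chromosome III, 6035193 to 6035404). It went from 5.63 in L1 to 4.55 in L2, with an FDR of 0.00465, in the authors' deposited table. The patched-related ptc-2, which RefSeq classes as a pseudogene, had a site 246 bp past its start (chromosome II, 6085322 to 6085584). Its values were 5.63 and 4.54 with an FDR of 0.00465 in the authors' deposited table. The pair thus lay close together in level, drop and error, with an implied standard error of 0.24 at each. The gene tsen-54, for a subunit of the tRNA splicing endonuclease, had a site 2508 bp past its start that went from 5.63 to 4.61 in the authors' deposited table. Here the standard error was 0.42 and the FDR 0.0469 in the authors' deposited table, so that this drop was among the less certain ones.

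The non-coding genes of the group were F46H5.10, Y67D2.11, C31G12.10 and F42G2.10 and the snoRNA gene Y111B2A.36. F46H5.10 went from 5.56 to 4.23, the lowest L2 concentration of any member, in the authors' deposited table, at a site over its own start (chromosome X, 7269016 to 7269261). The site of Y67D2.11 lies in exon 3 of 10 of ddx-35 (chromosome III, 1547512 to 1547710), and it went from 5.47 to 4.25 in the authors' deposited table. A site is assigned to its nearest transcript start, so such a site may belong to the RNA gene, to the gene whose exon it covers or to neither. R09A1.3 was the one gene of the 20 with an L2 peak, and its site (chromosome V, 1025042 to 1025661) went from 7.38 to 6.33 in the authors' deposited table. The rest of the 20 were Y95D11A.5, Y41D4B.24, dlhd-1, nep-3, Y105E8A.13, T05A8.6, Y46H3A.4, Y54B9A.1 and C17D12.5.

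Most of the 508 sites lay near a transcript start, though somewhat less often than the rest of the list. Promoter sites within 1 kb of a start numbered 249 (49%, 95% Wilson interval 44.7 to 53.4), against 53.5% (52.7 to 54.3) of the other sites. All promoter sites up to 3 kb numbered 426 (83.9%, 80.4 to 86.8), against 87.6% (87.1 to 88.2). Exons held 61 members (12%, 9.46 to 15.1) against 8.41% (7.96 to 8.88) of the other sites. Seen from the list, 3.18% of promoter sites within 1 kb and 4.87% of exon sites were members, around the 3.46% of all sites. Sites share libraries and neighbours, so these intervals cover counting error over sites and no test was made of the differences. The remaining classes were small, with 9 intronic, 6 distal intergenic, 4 downstream and 2 3' UTR members. No 5' UTR site was a member, which allows a share of up to 0.591% of the members, and the other sites had 0.141% there.

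Promoter sites may lie before or after the start. The median member lay 370 bp downstream of it (95% interval of the median 181 to 565), against 306 bp (277 to 330) for the other sites, and these intervals overlapped. Of the 508, 322 (63.4%, 59.1 to 67.5) lay wholly downstream of the assigned start, 136 (26.8%) upstream and 50 (9.84%) over it, and the other sites had 61.5%, 28.2% and 10.3%. Each of the 3 shares differed by under 2 percentage points. The member of largest drop in a 3' UTR was R04A9.1 (chromosome X, 409110 to 409411), at 0.80.

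The exon members were mostly internal to a gene, and so were the other exon sites. Of the 61 members, 55 lay in neither a first nor a last exon. First exons held 4 members and last exons 2, against 42 and 18 of the 1191 other exon sites. The exon was one of the assigned gene at 33 members and of another gene at 28, against 599 and 592 of the other exon sites. The AAA-ATPase gene mac-1 had its site in exon 5 of 7 (chromosome II, 13316383 to 13316747), from 6.07 to 5.08 in the authors' deposited table. The HECT ubiquitin ligase gene eel-1 had one in exon 9 of 15 (chromosome IV, 3043063 to 3043312), from 5.91 to 4.98 in the authors' deposited table. Both were singled out after their values were seen. Among sites assigned elsewhere, that of Y39E4B.11 covers exon 9 of 11 of gly-5, which encodes a glycosyltransferase, and that of the homeobox gene ceh-38 covers exon 1 of 23 of tra-2, a membrane protein of sex determination. Exon members overlapped an L2 peak in 9.84% of cases, against 44.5% of the other exon sites.

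**Figure D2:**
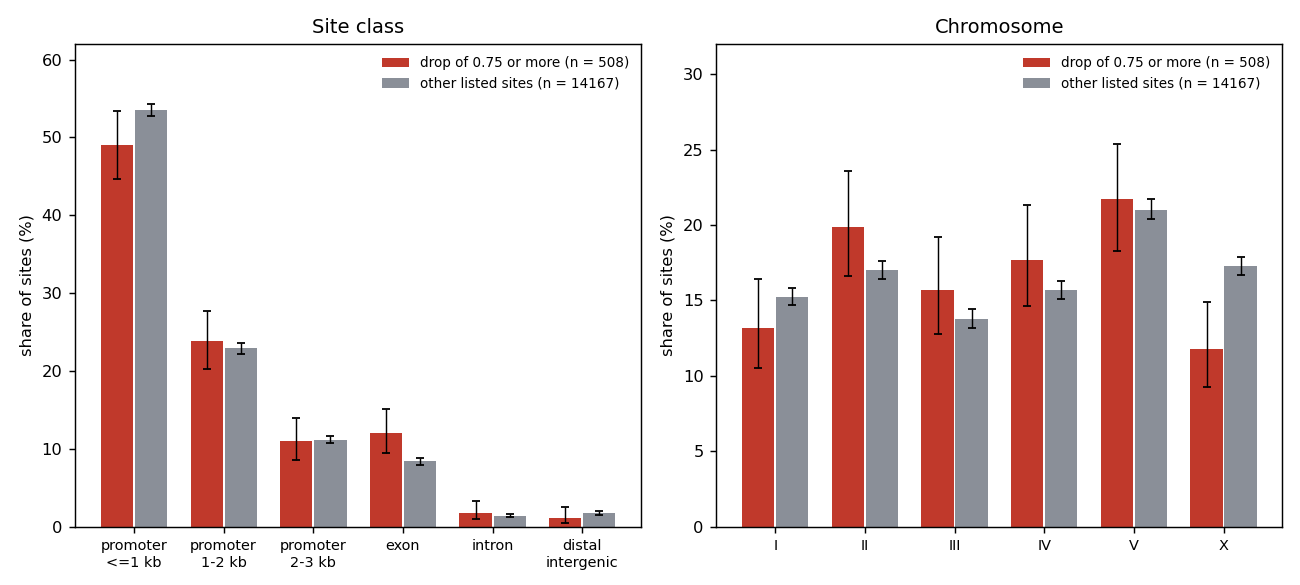
Share of sites in each annotation class (left) and on each chromosome (right), in percent, for the 508 sites with a drop of 0.75 or more (red) and the other 14167 listed sites (grey). Error bars are 95% Wilson intervals; the red bar is lower for promoters within 1 kb (49% against 53.5%) and for X (11.8% against 17.3%), and higher for exons (12% against 8.41%).

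By chromosome, members were least frequent on X. X held 60 members (11.8%, 9.29 to 14.9) but 17.3% (16.7 to 17.9) of the other listed sites. Of the listed sites, 2.39% (1.86 to 3.06) were members on X and 3.68% (3.36 to 4.03) on the autosomes. The autosomes ranged from 3.01% on I to 4.03% on II, and their intervals overlapped one another. The X chromosome still held the largest drop of all, that of C36E6.8, and the member with the highest concentration, that of F19G12.12.

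Members lay towards the ends of the autosomes. C. elegans autosomes have gene-dense centres with more conserved genes and arms that are richer in repeats and recombine more. When each chromosome was split into 5 equal parts over the span of its listed sites, 241 of 4370 listed sites in the outer parts of the autosomes were members (5.51%, 95% Wilson interval 4.88 to 6.23). In the 3 inner parts, 207 of 7795 were members (2.66%, 2.32 to 3.04). The outer parts thus held 53.8% of the autosomal members and 35.9% of the autosomal listed sites. The same order was found on each chromosome when its 2 ends were pooled. The outer and inner shares were 4.37% and 2.14% on I, 5.30% and 3.27% on II, 7.35% and 2.32% on III, 6.51% and 2.71% on IV, and 4.90% and 2.73% on V. On X they were 2.96% (2.06 to 4.25) and 2.04% (1.45 to 2.87), and these intervals overlapped. The last part of III had the highest share, 9.65% (33 of 342 listed sites).

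Width and L1 signal differed little between the outer and inner parts, whereas the drop and the calls made from it differed. Over all autosomal listed sites, the outer and inner medians were 365 and 368 bp for width, 2.04 and 2.03 for L1 fold enrichment, and 6.03 and 6.04 for L1 concentration in the authors' deposited table. The median drop was 0.48 in the outer and 0.43 in the inner parts, with quartiles of 0.38 and 0.58 in the outer and 0.34 and 0.53 in the inner parts, so listed sites below the threshold also had larger drops there. An FDR under 0.05 with a lower L2 value was found at 48.9% of the outer and 38.7% of the inner sites in the authors' deposited table. Within each of 5 bins of mean concentration, the outer share of members was above the inner one, for example 7.46% against 5.13% in the lowest bin and 4.58% against 1.45% in the highest. The same held within each of 5 bins of L1 fold enrichment and of width. These binned comparisons were chosen after the data were seen. Whether repeats or mappability of reads differ between these parts was not tested.

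**Figure D3:**
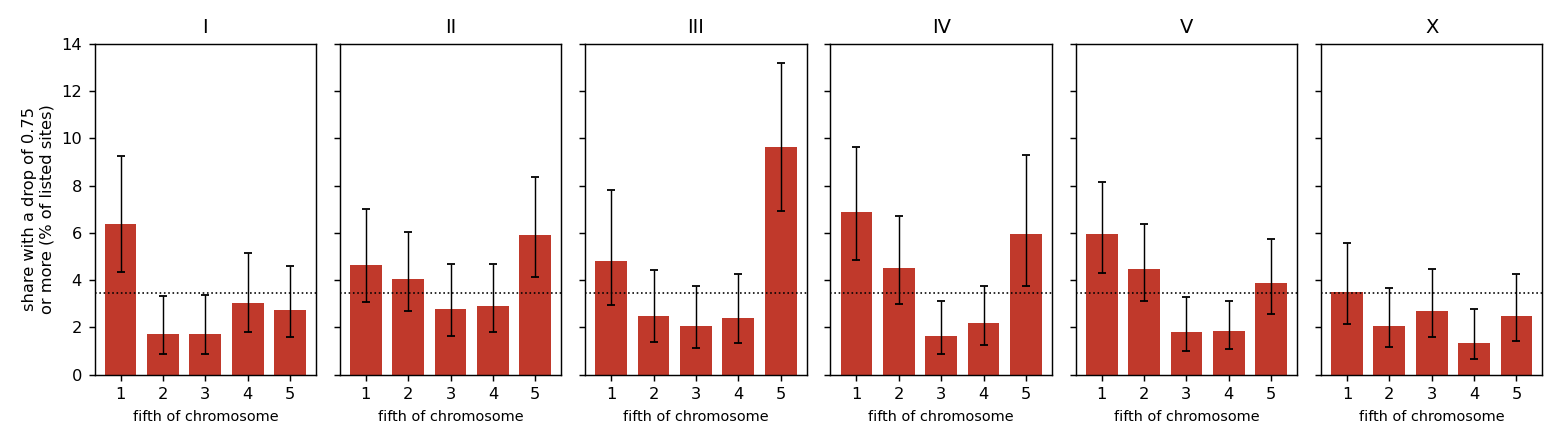
Share of listed sites with a drop of 0.75 or more, in percent, in each of 5 equal parts of the 6 chromosomes; error bars are 95% Wilson intervals and the dotted line is the share over all listed sites (3.46%). On the autosomes the first or the last part, or both, stand above the middle parts, with the highest bar, 9.65%, in the last part of III.

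Members were narrower than the rest of the list. Their median width was 319 bp (95% interval of the median 310 to 338, range 183 to 1722) against 368 bp. Sites under 300 bp made up 41.1% of the members (36.9 to 45.5) and 29.4% (28.6 to 30.1) of the others. When the other sites were weighted to the members' distribution of mean concentration, 43.4% of them were under 300 bp. Concentration rises with width, and its mean includes the L2 value that the rule uses. This weighting therefore cannot separate width from level. Within each of 5 bins of L1 concentration, members again had the smaller median width, from 230 against 250 bp in the lowest bin to 629 against 701 bp in the highest. The widest members were sites of Y95D11A.4 (1722 bp), F19G12.12 (1670 bp) and cpt-3 (1652 bp), and the narrowest were sites of F49F1.11 and F54E4.2 (183 bp each) and ZK757.1 (188 bp).

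Nearly all members lay in an L1 peak and few in an L2 peak, counting an overlap of at least 1 bp. An L1 peak was found at 504 of the 508 (99.2%, 98 to 99.7) and at 99.7% of the other sites. An L2 peak was found at 79 members (15.6%, 12.7 to 19) and at 39.6% (38.8 to 40.4) of the others. With the others weighted to the members' mean concentration the latter share was 31.3%. The peaks come from the same libraries as the drop, so a low L2 overlap is partly built into the choice of sites. The share fell with the size of the drop, from 19.4% at drops under 0.80 to 7.84% from 0.90 to under 1.00 and 4.17%, or 1 of 24 sites, at 1.00 or more. No member overlapped an L2 peak alone, and only 2 of the other 14167 listed sites did.

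The 79 members that kept an L2 peak were the strong and wide ones. Their median concentration was 6.76 in L1 and 5.98 in L2 in the authors' deposited table, and their median width was 537 bp. The 429 without an L2 peak had medians of 5.91 and 5.11 in the authors' deposited table, and of 302 bp. The median drop was 0.79 in the first set and 0.80 in the second, although the share with an L2 peak was lower at larger drops, as given above. The relation to level and width was also found in the other listed sites. Their share with an L2 peak rose from 6.69% to 75.8% over 5 bins of mean concentration. Over 5 bins of width it rose from 14.5% to 67.8%. The site over the start of the non-coding gene F19G12.12 (chromosome X, 1408790 to 1410459) had the highest concentration of any member, 8.88 in L1 and 7.97 in L2, in the authors' deposited table. Its fold enrichment was 3.57 in L1 and 2.09 in L2. Y5H2A.4 (chromosome V, 2272638 to 2274032) went from 8.62 to 7.74 in the authors' deposited table, with fold enrichments of 3.22 and 2.06. These sites stayed above the median L1 level of the whole list after their drop. The same held for the astacin protease gene nas-32, from 8.06 to 7.28, and for cpt-3, of the carnitine palmitoyltransferase family, from 8.34 to 7.59, in the authors' deposited table.

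Peaks under the members were taller in L1 than those under the other sites. The median L1 fold enrichment was 2.20 (range 1.57 to 3.57) against 2.02. A fold enrichment of 2.5 or more was found at 81 members (15.9%, 13 to 19.4) and at 4.67% (4.34 to 5.03) of the others. The share of listed sites that were members went from 1.64% in the lowest of 5 bins of fold enrichment through 2.06%, 2.43% and 3.66% to 7.48% in the highest. Of the 31 listed sites with a fold enrichment of 3 or more, 11 were members (35.5%). Within each of 5 bins of L1 concentration the members again had the higher median, from 1.99 against 1.93 in the lowest bin to 2.52 against 2.18 in the highest. The share of members was by contrast nearly flat over bins of L1 concentration, between 3.17% and 3.71%. Both L1 values were measured in libraries that the rule used, and this relation is a description.

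**Figure D4:**
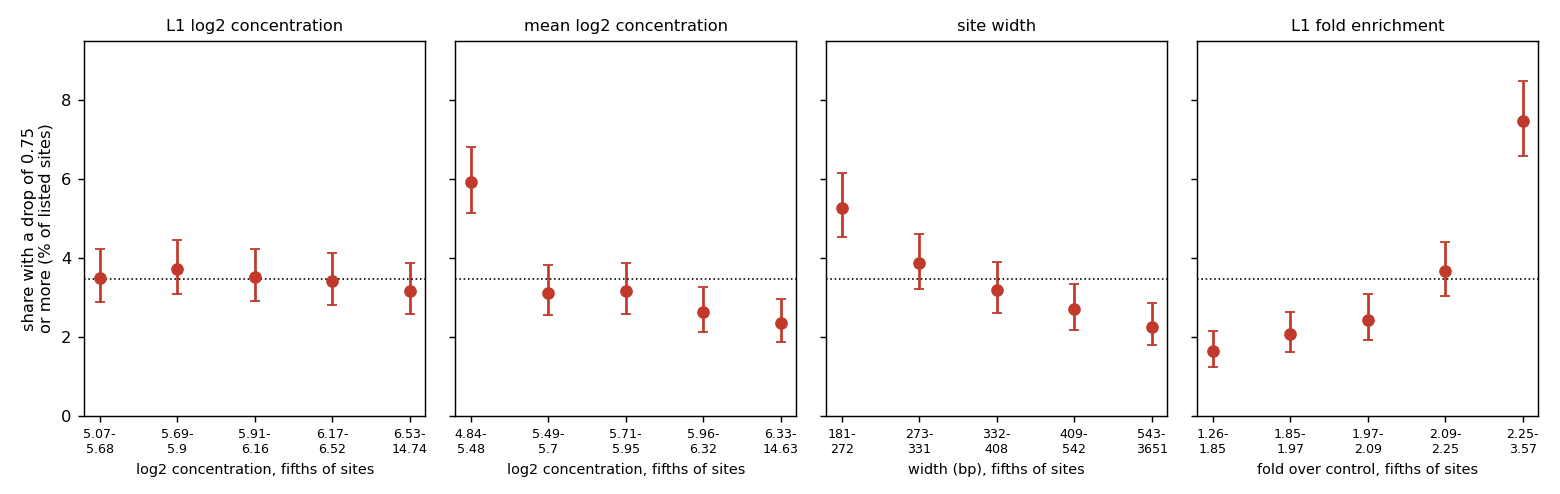
Share of listed sites with a drop of 0.75 or more, in percent, in 5 equally filled bins of L1 log2 concentration, mean log2 concentration, site width in bp and L1 peak fold enrichment over control; error bars are 95% Wilson intervals and the dotted line is 3.46%. The share stays between 3.17% and 3.71% over L1 concentration, falls with width from 5.28% to 2.26% and rises with fold enrichment from 1.64% to 7.48%. It also falls with mean concentration, which includes the L2 value that the rule uses, so that fall is partly built into the choice of sites.

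Members were mostly scattered along the chromosomes, and 409 of them (80.5%) had no other member within 10 kb. The remaining 99 formed 39 pairs and 6 groups of 3 or more. The largest group, on chromosome I from 10945900 to 10953107, held 6 members within 7.21 kb, which were all 6 listed sites of that stretch. They are assigned to the non-coding gene Y95D11A.4 and the protein-coding gene Y95D11A.5, with 3 sites each. The site of highest concentration, at Y95D11A.4, went from 8.68 to 7.68 with an FDR of 0.0583 in the authors' deposited table. It was also the widest of the 6, at 1722 bp. Its L1 fold enrichment of 2.18 was below the 2.81 and 2.68 of the others with an L1 peak. The site of Y95D11A.5 with the largest drop of the group, 1.10, went from 7.80 to 6.70 with an FDR of 0.0393 in the authors' deposited table. The drops of all 6 lay between 0.91 and 1.10, whereas the neighbouring listed sites on either side, at Y95D11A.3 and spe-38, went from 6.61 to 6.17 and from 5.95 to 5.58 in the authors' deposited table.

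This stretch differed from most members in its error and its L1 peaks. Its implied standard errors ran from 0.41 to 0.56, against a median of 0.22 over the members, and 4 of the 6 sites had an FDR of 0.05 or more in the authors' deposited table. Of the 4 members that overlapped no L1 peak, 3 lay here, although their concentrations were 6.38, 5.47 and 6.72 in L1 in the authors' deposited table. The fourth was the C36E6.8 site. None of the 6 overlapped an L2 peak. Neighbouring sites within a few kilobases are not separate observations, and without values per library it was not tested whether a single library carries the drop of the stretch.

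**Figure D5:**
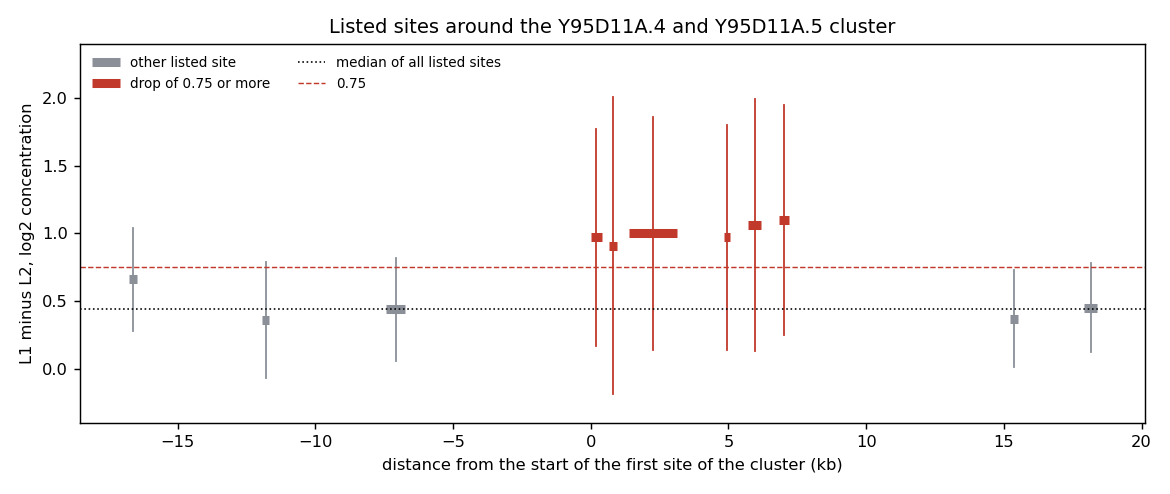
Drop from L1 to L2 in log2 concentration of the listed sites around Y95D11A.4 and Y95D11A.5, against distance in kb from the start of the first of the 6 members. Bars span each site's width, vertical lines are 95% intervals from the implied standard errors, and the dotted and dashed lines mark the median drop of all listed sites and 0.75; the 6 red members lie between 0.91 and 1.10 with long intervals, and the grey neighbours below 0.75 with short ones.

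In 3 of the other 5 groups, too, every listed site of the run was a member. Each run begins and ends at a member by its definition, so only listed sites between its ends could have been non-members. All 3 listed sites of Y56A3A.6 (chromosome III) belonged, with drops from 0.80 to 0.88, and so did all 3 within a run at Y55F3BR.2 and Y55F3BR.1 on chromosome IV, where a further listed site of Y55F3BR.2 outside the run had a drop of 0.65. A run on chromosome V from 5159262 to 5164122 held abu-15, C03A7.15 and abu-7, with drops from 0.79 to 0.92. The abu genes encode glutamine- and asparagine-rich secreted proteins known from the unfolded protein response and the pharyngeal cuticle. Of the 7 abu genes with a listed site, 4 had a member, the other ones being abu-8 and abu-11. The share over all genes with a listed site was 4.86%. Of the 11 listed sites of these 7 genes, 4 were members. The abu-11 site on chromosome II had the highest concentration of these members, from 7.56 to 6.74 in the authors' deposited table. This family was singled out after the values were seen, and its members are near copies of one another, so that reads may have been split or shared between them. In the last groups, members were 3 of 7 listed sites at W10G11.1, lgc-45 and clec-128 and 3 of 5 at T05A1.17, col-122 and lron-14.

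Of the 486 genes with a member, 222 had no other listed site. A further 257 genes had 464 other listed sites that were not members, and the median drop of these was 0.48 (interquartile range 0.38 to 0.59) against 0.44 for 13703 sites of genes with no member. Most other sites of the same genes were therefore close to the rest of the list. Among the 19 genes with at least 2 members were glh-2, which encodes a germline helicase of the Vasa type, polg-1, the mitochondrial DNA polymerase, and plx-1, a plexin receptor for semaphorins. At polg-1 both members lay in exons, 5 and 6 of 10, with drops of 0.89 and 0.76, and at plx-1 in exons 8 and 19 of 24, with drops of 0.82 and 0.77. The polg-1 site of larger drop had an FDR of 0.0557 in the authors' deposited table and did not reach 0.05.

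By gene type, members followed the list closely. Protein-coding genes took 402 members (79.1%, against 79.3% of the other sites), non-coding RNA genes without a class of their own 68 (13.4% against 13.8%) and piRNA genes 20 (3.94% against 4.10%). The snoRNA genes took 7 (1.38% against 0.769%). Biotypes come from RefSeq, to which 505 of the 508 sites were matched by gene.

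Gene families were counted as genes with a member among genes with a listed site, and 4.86% is the share over all genes. With few members per family, these counts carry no test, and genes with more listed sites had more chances to hold a member. Across the 27 families counted, 99 of the 508 member sites belonged to a family. The same count was not made over all listed sites, so nothing is read from it.

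Hedgehog-related and patched-related genes had a member at 6 of 43 genes (14%). These genes encode secreted proteins related to hedgehog and membrane proteins related to its receptor Patched, and many are known from the epidermis and moulting. After ptc-2, the ground-like grl-15 had the largest drop of the family, from 7.32 to 6.33 with an FDR of 0.00402 in the authors' deposited table. Its site lies 1775 bp past the start (chromosome III, 12233052 to 12233835). The related grl-16 went from 6.74 to 5.88 with a site 427 bp past the start (chromosome I, 573980 to 574696), in the authors' deposited table. The patched-related ptr-11 had a drop of 0.80, and qua-1 and grd-3, both hedgehog-related, had drops of 0.76 and 0.75. All 6 sites had an FDR under 0.05 in the authors' deposited table, and none overlapped an L2 peak. Over all 508 members, 97% had such an FDR and 15.6% overlapped an L2 peak.

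Cuticle collagens, the structural proteins of the worm's outer coat, had a member at 8 of 80 genes (10.0%). The site over the start of col-176 (chromosome X, 10077505 to 10077814) went from 5.73 to 4.81 with an FDR of 0.00856 in the authors' deposited table. The site of col-72, 764 bp before its start, went from 5.89 to 4.99, but with an FDR of 0.0385 and thus less certainty, in the authors' deposited table. Next came col-36 with a drop of 0.87 and col-88 with 0.83. The others were col-129, bli-2, col-103 and col-122. Among astacin proteases and other apical matrix genes 2 of 45 had a member, nas-32 and the cuticlin gene cut-6.

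Genes that act at synapses and in transmission had members at small numbers of genes. Receptors for neurotransmitters had 6 of 46 genes (13%). The ligand-gated ion channel gene lgc-21 had a site 23 bp past its start (chromosome X, 14067669 to 14067892) that went from 5.54 to 4.67, with an FDR of 0.0152, in the authors' deposited table. The channel genes lgc-45 and lgc-47 had drops of 0.83 and lgc-26 of 0.78, and the lgc-47 site lies in exon 5 of 19 of dpy-22, a Mediator subunit. At lgc-26 the other 2 listed sites went the opposite way. The wider one (chromosome V, 264963 to 265977) went from 9.80 in L1 to 10.62 in L2 with an FDR of 0.00856, and the other (266256 to 266533) from 5.66 to 6.51 with an FDR of 0.0101, in the authors' deposited table. They were the 2 of the 37 listed sites higher in L2 that were assigned to a gene with a member, and they lie before the start while the member lies 876 bp past it. The acetylcholine receptor subunit gene acr-17 and the glutamate-gated chloride channel gene glc-2 completed the 6. Synaptic genes had 3 of 19 genes. The site of syd-2, the liprin of the presynaptic active zone (chromosome X, 10551966 to 10552238), went from 6.16 to 5.29 in the authors' deposited table, and its L1 fold enrichment of 3.02 was among the highest of the members. The active-zone gene rimb-1 went from 5.99 to 5.11 and egl-3, whose enzyme cuts neuropeptide precursors, from 6.73 to 5.90, in the authors' deposited table. Genes of adhesion and axon guidance had 3 of 46, which were lron-14, plx-1 and rig-1. Neuropeptide genes had 1 of 49, mihp-1, named nlp-38 in the files, with a drop of 0.83.

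Families of transcription factors and regulators had members at 2 to 4 genes each. Homeobox genes had 4 of 49 (8.16%), with drops of 0.98 at hmbx-1, 0.90 at eyg-1, 0.79 at ceh-38 and 0.75 at ceh-63. The hmbx-1 site, 127 bp past the start (chromosome I, 989801 to 990082), went from 5.89 to 4.91 with an FDR of 0.00552 in the authors' deposited table. The helix-loop-helix, T-box, forkhead, GATA, Sox and ETS genes had 3 of 40 (7.5%), led by fkh-2, whose site over the start went from 5.69 to 4.78 in the authors' deposited table. The other members of this set were tbx-31 and hlh-28. Nuclear hormone receptors had 3 of 107 (2.80%), led by nhr-155 with a drop of 0.83. Chromatin modifiers had 3 of 47, which were the SET-domain gene set-9, in exon 5 of 9, the histone deacetylase gene hda-4 and cbp-3. Heterochronic genes, which set developmental timing, had 2 of 16. Their sites were that of lin-66, from 5.98 to 5.16, and that of sea-2, from 5.79 to 4.99, in the authors' deposited table.

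Large families with roles in sensing, detoxification and defence, and the small RNA genes, were counted in the same way. Chemoreceptor genes had 13 of 456 (2.85%), led by srw-60, whose 2 member sites lie in the last intron of the neighbouring Y47H9C.17, with drops of 1.01 and 0.83. Genes with F-box, MATH or BTB domains had 2 of 167 (1.20%), and cytochrome P450 and conjugating enzyme genes 2 of 73 (2.74%). C-type lectin genes had 10 of 166 (6.02%), led by clec-98, which went from 6.25 to 5.39 and kept an L2 peak, in the authors' deposited table and peak list. The piRNA genes had 20 of 497 (4.02%), led by 21ur-1163 with a drop of 0.92, and microRNA genes 2 of 55, mir-4937 and mir-8191. Single genes with a member were npp-25 of 15 nuclear pore genes, hil-4 of 10 histone genes and unc-89, a giant protein of the muscle M-line, of 18 muscle genes.

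No member was found in 6 families, and only large shares could have been seen. For neuropeptide receptors, 0 of 66 listed sites allows a share of up to 4.55%, and for potassium channels, 0 of 55 allows up to 5.45%. Both limits lie above the 3.46% of all listed sites. The genes of the Wnt, Notch and Ras pathways had 0 of 39 sites, those of insulin and TGF-beta signalling 0 of 36, ribosomal protein genes 0 of 17 and transmitter identity genes 0 of 13, with limits from 7.69% to 23.1%.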

How the data were processed

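Chromatin immunoprecipitation libraries of whole larvae were processed by the authors with BWA, SAMtools, MACS2, DiffBind and ChIPseeker, per the submitters' processing notes. Their versions, the build and the normalization were not given in the sources used here. Peak names in the deposited lists say that libraries were merged within each stage after outliers had been dropped, so depth per library is unknown. In the authors' peak lists each peak has a score, a fold enrichment ratio over control and a −log10 q-value. The authors' deposited table gives log2 concentrations per stage, their log2 fold, a p-value and an FDR for each site, per the file headers, and lists sites with an FDR up to 0.3.

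Sites with an L1 minus L2 concentration of 0.75 or more were taken, and shares with 95% Wilson intervals were set beside those of the other listed sites. Intervals cover counting error over sites only. No test was run. Peaks overlapped at 1 bp or more. Members within 10 kb were grouped. Gene names, classes and distances are the authors', and symbols and biotypes come from the RefSeq table of assembly WBcel235, whose coordinates were not used. The implied standard error is the size of the fold divided by the normal quantile of its p-value.

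The members and the gene families were chosen with earlier results of these data known, and the family lists were tidied after the files had been opened. Named were the 20 genes of largest drop, the largest drop of each class and chromosome, up to 4 genes per family, the 5 sites on each side of the threshold, the members of highest concentration and extreme width, genes with several members, and members with no L1 peak. Further genes were named after their values were seen. Motif words in promoters were not analysed here. Alternatives varied the threshold, FDR, overlap, peak strictness and weighting. Computation was in Python 3.11.15 (pandas 2.3.3, NumPy 2.4.6, SciPy 1.17.1) and plotting in matplotlib 3.10.9.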

Additional observations from a re-analysis of the deposited data

How the results depend on the processing

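Of 94 values recomputed under alternatives, 68 stayed within the range of the reported value and 26 moved. At a drop of 0.70 or more there were 875 sites at 822 genes, 19.2% of them in an L2 peak. At 0.80 or more there were 281 sites at 269 genes, with 12.5% in an L2 peak, a median width of 308 bp and a median L2 concentration of 5.10. At 1.00 or more there were 24 sites at 23 genes. Of these, 33.3% were promoter sites within 1 kb, 62.5% promoter sites of any distance, 25.0% on chromosome II, 91.7% in an L1 peak and 4.17% in an L2 peak, and 61.9% of the autosomal ones lay in the outer parts. Their median concentrations were 5.83 in L1 and 4.79 in L2, and their median L1 fold enrichment was 2.16. An L1 peak was found at 99.8% of members with an FDR under 0.05 and at 100% of members with an implied standard error up to 0.30, an alternative chosen after seeing the data. A reciprocal overlap of 50% gave 93.3% for L1 and 9.25% for L2, and stricter peaks (−log10 q of at least 10) gave 77.4% for L1. The other listed sites had 91.3%, 27.2% and 59.5% in the same order. With the others weighted by concentration, 31.3% of them had an L2 peak and 43.4% were under 300 bp wide. No paired analysis was possible because the deposited files hold 1 value per stage and none per library, and for the same reason no library was left out in turn. Neither the share of reads in peaks nor the effect of depth on a site's drop could be computed from these files.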
